A study of Homo sapiens with 22 samples.

Results

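At 1704 CTCF sites of K562 cells, a cohesin peak was present before treatment with PMA and absent after 72 h, while the CTCF peak stayed. Cohesin was followed through its subunit Rad21. The sites, called lost sites here, were taken from the 109111 regions of the Rad21 table, of which 107902 lie on chromosomes 1 to 22 and X. A region was a lost site when it overlapped, by at least 1 bp, a deposited peak of each of the 6 CTCF libraries and of both Rad21 libraries at 0 h, and of neither Rad21 library at 72 h. Of the 11460 regions with a CTCF peak in all 6 libraries, 14.9% met this rule. Under the same CTCF rule, 3477 regions (30.3%) had Rad21 peaks in all 4 libraries and are called kept sites. Another 2021 (17.6%) had both 0 h peaks and 1 of the 72 h peaks and are called partly lost. A further 137 had no Rad21 peak at 0 h and both at 72 h, and 622 had none in any library. The sites were thus chosen by the presence and absence of Rad21 and CTCF peaks, so their levels, and the calls made on them across all regions, are given below as a description and not as a test of these sites. H3K27ac and Jun played no part in the rule.

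Cohesin is a ring of SMC1A, SMC3, Rad21 and a STAG subunit that is loaded onto chromatin and extrudes loops of DNA. CTCF, a zinc finger protein that reads a long DNA motif, halts the ring when it meets the protein in the right orientation, so cohesin piles up at CTCF sites and loop ends form there. WAPL takes cohesin off chromatin, and CTCF can stay bound at a site where little cohesin is held.

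The samples were wild-type cultures of K562, an established human leukemia line with erythroid and megakaryocytic potential, given 25 nM PMA for 0, 6 or 72 h. PMA is a phorbol ester that switches on protein kinase C and drives the line toward a megakaryocyte-like state. CUT&RUN, in which an antibody directs a nuclease that releases the DNA beside the bound protein, was done for H3K27ac, CTCF and Jun at all 3 times and for Rad21 at 0 and 72 h, with 2 libraries per group and 22 in all. H3K27ac is an acetylated histone mark of active promoters and enhancers, and Jun is one of the proteins that pair up to form the transcription factor AP-1. Nothing in the labels says that libraries of a group came from separate cultures, so tests measure the spread between these libraries, which may be technical. The Rad21 libraries held between 4398797 and 7285286 counts over their regions, and the others from 2553677 to 6068421 for CTCF, from 12634261 to 27266241 for H3K27ac and from 4766421 to 18883962 for Jun. As a check of the line, 6 of 8 erythroid genes (TAL1, LMO2, GFI1B, HBG1, HBZ and ALAS2, but not GATA1 or NFE2) had an H3K27ac peak in both 0 h libraries within 1 kb of their span. Single regions dominated the Rad21 libraries: the 100 highest held 43.7% and 35.8% of counts at 0 h and 43.2% and 43.3% at 72 h.

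Few lost sites were promoters, and these are shown first because their sequence was at hand. RefSeq promoter windows (GRCh38.p14, from 250 bases before to 50 after a gene start) overlapped 42 of 1623 lost sites (2.59%), with 1 chromosome not used here for windows, against 450 of 3374 kept sites (13.3%) and 8.02% of all Rad21 regions. A CTCF core was searched on both strands as CCANNAGG joined directly to NGGC, where N is any base. It was present in 4 of the 49 windows at lost sites (8.16%), in 34 of 617 windows at kept sites (5.51%) and in 370 of all 35116 windows (1.05%). The AP-1 motif TGANTCA stood in 2 of the 49 lost-site windows (4.08%), in 4.54% of kept-site windows and in 7.71% of all windows. The GATA motif AGATAA also stood in 2 lost-site windows (4.08%), in 5.19% of kept-site windows and in 10.3% of all windows. None of the 3 motifs contains another. A match is a description of the letters and not evidence of binding.

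The 4 windows with the CTCF core inside a lost site belong to OR2L13, an olfactory receptor gene, ROBO3, an axon guidance receptor gene, CHD9, which encodes a chromodomain helicase, and TDRD7, which encodes a Tudor domain protein of RNA granules. The stretches lie at chr1:247937008-247937067, chr11:124876672-124876731, chr16:53054937-53054996 and chr9:97411846-97411902, all on the plus strand, which is also the strand of each gene. Capitals mark the CTCF core, and the sequences let a reader see how the free positions differ between the sites.
OR2L13: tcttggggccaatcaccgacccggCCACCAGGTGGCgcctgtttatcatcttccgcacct
ROBO3: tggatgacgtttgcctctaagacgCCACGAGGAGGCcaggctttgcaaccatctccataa
CHD9: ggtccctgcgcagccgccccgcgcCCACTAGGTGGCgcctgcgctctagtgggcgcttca
TDRD7: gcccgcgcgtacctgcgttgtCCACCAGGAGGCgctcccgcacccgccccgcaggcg
The core begins 145 bases before the start of OR2L13, 118 before that of ROBO3, 30 before that of CHD9 and 229 before that of TDRD7. Levels are given in CPM, the counts scaled to a common library size with TMM factors. Rad21 at the ROBO3 site was 6.45 and 7.39 CPM at 0 h and 3.72 and 4.52 at 72 h, so the times did not overlap. At the OR2L13 site it was 5.03 and 8.02, then 5.21 and 3.58, with overlap. The CHD9 site held 25.8 and 25.3 CPM and then 22.6 and 21.5, and the TDRD7 site 7.7 and 6.97 and then 7.89 and 7.16. These last 2 sites kept most of their Rad21 counts although no peak was called over them at 72 h. CTCF at the CHD9 site was 24.2 and 22 CPM at 0 h, 28.2 and 28.1 at 6 h, then 15.7 and 22.8 at 72 h.

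Lost sites were weaker cohesin sites from the start, and at 72 h their median Rad21 level in CPM lay between that of kept sites and that of sites with no Rad21 peak. Their median Rad21 level was 8.33 and 7.81 CPM in the 0 h libraries and 4.76 and 4.9 in the 72 h libraries. Median raw counts behind these were 53, 37, 32 and 26 per site. Kept sites had medians of 16.7 and 15.2 CPM at 0 h and 14.4 and 14 at 72 h, and sites with no Rad21 peak 3.46, 3.17, 2.98 and 3.02. In bulk chromatin, fewer cells with cohesin at a site and less cohesin per cell cannot be told apart. Lost sites were also narrower, with a median width of 504 bp against 633 bp for kept sites, while sites with no Rad21 peak had 245 bp. Per kb of region, the lost-site median was 16.5 and 15.5 CPM at 0 h and 9.34 and 9.46 at 72 h. Kept sites held 24.6 and 22.3, then 20.6 and 20.1 CPM per kb, and sites with no Rad21 peak 12.6 and 11.8, then 11.2 and 11.9. Per kb, the 72 h medians at lost sites were thus lower than at CTCF sites where no library had a Rad21 peak, while in CPM they were higher, those regions being narrower. The plot of levels by library shows this shift at lost sites in both 72 h libraries.

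**Figure D1:**
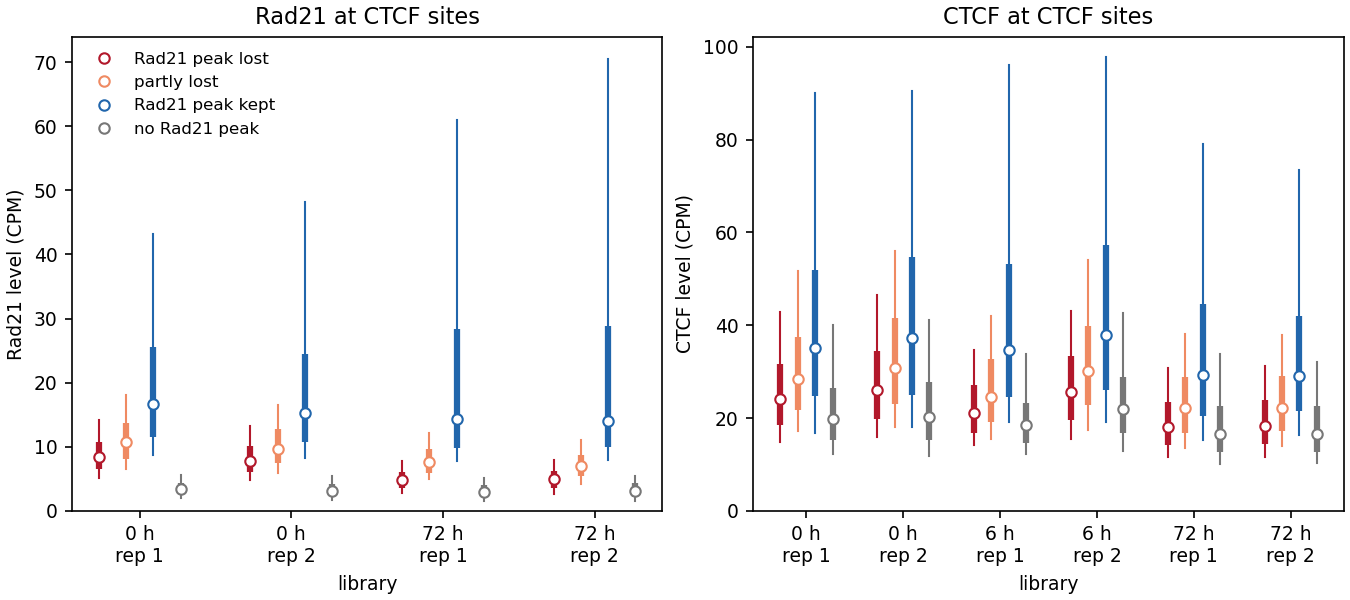
Rad21 (left) and CTCF (right) levels in CPM in each library, for lost, partly lost and kept sites and for CTCF sites with no Rad21 peak. Circles are medians over sites, thick bars the quartiles and thin lines the 10th to 90th percentiles; the lost-site Rad21 median goes from 8.33 and 7.81 at 0 h to 4.76 and 4.9 at 72 h, while that of kept sites stays between 14 and 16.7.

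The difference in Rad21 varied in size among lost sites. Both 72 h libraries lay below both 0 h libraries at 1478 of 1704 lost sites (86.7%), against 31.7% of all Rad21 regions, and above them at 10 lost sites, against 26.5%. The log2 fold change of 72 against 0 h had a median of -0.79, quartiles of -1.05 and -0.53 and a range from -2.43 to 0.64. It was below -1 at 490 sites and above 0 at 36. The median was -0.09 at kept sites and -0.06 over all tested Rad21 regions on these chromosomes. In the median site, the 72 h mean was 0.58 of the 0 h mean. The edgeR quasi-likelihood test, adjusted by Benjamini-Hochberg over all 83750 tested regions, called 572 lost sites lower, where 7.91% of all regions were lower, and 0 higher, where 15.4% were. This contrast is the one the rule used, so the counts are a description. They depended on single libraries and on the method. With the DESeq2 test 114 lost sites were called (6.69%), where 10.3% of all tested regions were called in either direction. In the edgeR fit these shares were 33.6% and 23.3%. Leaving out 1 library gave lost-site medians from -0.8 to -0.53, and medians from -0.16 to 0.02 over all regions. In the authors' deposited table every lost site had the label static, with a median log2 fold change of -0.31, a range from -1.94 to 0.25, and 22 sites with an adjusted p under 0.05.

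The values on either side of the rule's border were as follows. At 0 h, the authors' fold enrichment of the Rad21 peaks over lost sites had medians of 5.29 and 5.19, and their −log10 q medians of 9.39 and 8.69, against 19.7 and 17.5 at kept sites. Rad21 summits lay close to the CTCF summit of the first 0 h library, with median distances of 68 and 76 bp at lost and 43 and 46 bp at kept sites. At 72 h, partly lost sites without a peak in replicate 1 had a median of 6.1 CPM there, and those with one 8.19. In replicate 2 the medians were 6.22 and 8.11. Lost sites, without a peak in either, had 4.76 and 4.9. The number of sites depended on which libraries entered the rule: it was 2638 and 2569 without replicate 1 or 2 at 0 h, and 3161 without replicate 1 at 72 h. Peaks per Rad21 library numbered 34680 and 59005 at 0 h and 33048 and 25687 at 72 h. Their part in the number of lost sites was not tested. Over all Rad21 regions, 6007 had peaks in both 0 h and neither 72 h library, and 4289 the reverse. With CTCF peaks in all 6 libraries these numbers were 1704 and 137.

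CTCF stayed bound at lost sites by the rule, at a level that was lower at 72 h. The median was 24 and 26 CPM at 0 h, 21 and 25.6 at 6 h, then 18 and 18.3 at 72 h. Kept sites had medians of 35.2 and 37.2, 34.6 and 37.8, and 29.3 and 29.1 CPM. The lost-site medians at 72 h lay below those of every earlier library, and the same was true of kept sites. The log2 fold change of CTCF at 72 against 0 h had a median of -0.47 at lost sites, -0.31 at kept sites and 0.03 over all tested CTCF regions. It was below 0 at 89.2% of lost sites and below -1 at 103 of them. edgeR called 166 lost sites lower, where 2.72% of 58156 tested regions were lower, and 2 higher, where 4.07% were. Since CTCF peaks in all 6 libraries chose the sites, and the other regions did not pass that rule, these counts too are a description. At 6 against 0 h it called 3 lost sites, all lower, where 2.65% of regions were called, 0.325% lower and 2.33% higher. At 72 against 6 h it called 17, again all lower, where 2.18% of regions were called, 1.73% lower and 0.449% higher. The count of 168 at 72 against 0 h was 5 and 0 without replicate 1 or 2 at 0 h, 490 and 471 without replicate 1 or 2 at 6 h, and 4 and 3 without replicate 1 or 2 at 72 h. With total counts scaling it was 27, or 1.58% of lost sites, where 12.3% of all regions were called. In the main fit these shares were 9.86% and 6.79%. That scaling gave medians of -0.24 at lost sites and 0.26 over all regions. The count at 6 against 0 h was 0 without replicate 1 or replicate 2 at 0 h and 23 without replicate 2 at 6 h. At 72 against 6 h it was 6 and 5 without replicate 1 or 2 at 0 h, 153 without replicate 1 at 6 h, and 0 and 1 without replicate 1 or 2 at 72 h, and total counts scaling gave 6 higher and 1 lower. At the 166 sites called lower for CTCF, the median Rad21 log2 fold change was -0.95, and at the 1536 not called it was -0.77. Across all 1704 lost sites, which share libraries and depth, Pearson's r between both fold changes was 0.238, a weak relation. It was 0.664 across kept sites, whose Rad21 fold changes ranged from -2.02 to 3.36, against -2.43 to 0.64 at lost sites. The rule chose both groups by Rad21 peaks and so shaped these ranges, and no conclusion is drawn from the difference in r.

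H3K27ac peaks were less frequent at lost than at kept sites, and about as frequent as at CTCF sites with no Rad21 peak. A peak of the mark in at least 1 of 6 libraries overlapped 12% of lost sites, 53.5% of kept sites and 40.5% of all Rad21 regions. At lost sites, a peak was present in both libraries at 5.4% at 0 h, 3.52% at 6 h and 4.99% at 72 h. The same shares at kept sites were 29.1%, 29.3% and 36.1%, and over all Rad21 regions 21.9%, 18.8% and 30.5%. Jun peaks showed the same contrast: 15.1% of lost sites, 71.2% of kept sites and 43.3% of all regions had one in any of 6 libraries. In both libraries, Jun peaks covered 1.94%, 0.587% and 5.16% of lost sites at 0, 6 and 72 h. At kept sites these shares were 44.2%, 34.2% and 56.1%, and over all Rad21 regions 19.2%, 13.4% and 33.2%. The Jun libraries had 31637 and 35072 peaks at 0 h, 23946 and 35376 at 6 h, then 92329 and 99102 at 72 h. The part of these peak numbers in the shares was not tested. Altogether 1342 lost sites (78.8%) had no peak of H3K27ac or Jun in any of 12 libraries, against 21.8% of kept sites and 49.5% of all regions. CTCF sites with no Rad21 peak were like lost sites in this: 78.3% had neither mark, 12.2% had H3K27ac and 14% had Jun in any library, over narrower regions with a median width of 245 bp. The bars of peak shares by time show lost sites below kept sites in every single library.

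**Figure D2:**
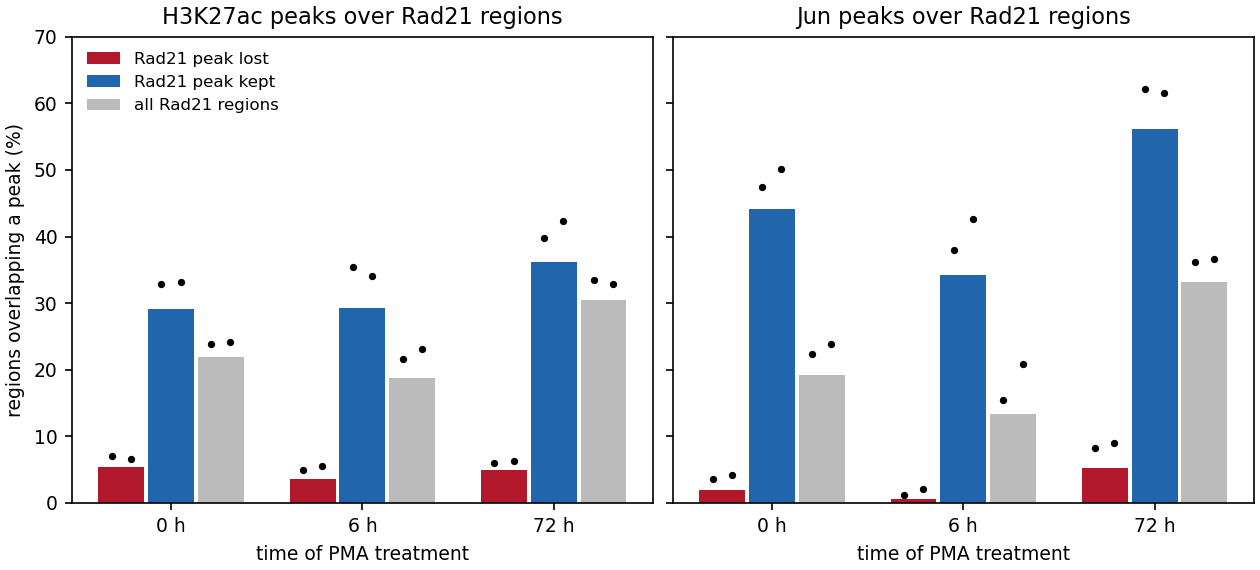
Share of Rad21 regions overlapping an H3K27ac (left) or Jun (right) peak at 0, 6 and 72 h, in percent. Bars give the share with a peak in both libraries and dots the share in each library; lost sites reach at most 5.4% for H3K27ac and 5.16% for Jun in both libraries, kept sites at least 29.1% and 34.2%.

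The lower shares were also seen within ranges of the starting cohesin level, as measured in the 0 h libraries that the rule used. Lost sites were divided into quartiles of mean Rad21 at 0 h, from 2.6 to 6.43, to 8.11, to 10.4 and to 47.3 CPM. An H3K27ac peak in any library was present at 7.98%, 6.34%, 12.2% and 21.6% of lost sites in rising order. In the same ranges kept sites had 36.7%, 28.8%, 38.8% and 54.1%, although only 60 kept sites fell in the lowest. For Jun the lost-site shares were 11.7%, 11.3%, 14.6% and 23%, against 50%, 49%, 54.8% and 72.6% at kept sites. Partly lost sites stood between both groups in every range. Levels within a range were not matched further. The highest and widest range held 426 lost and 2470 kept sites, whose mean CTCF level had medians of 27.1 and 35.1 CPM. No test was made, since regions are not replicates, and the part of the starting level in the difference was not tested.

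**Figure D3:**
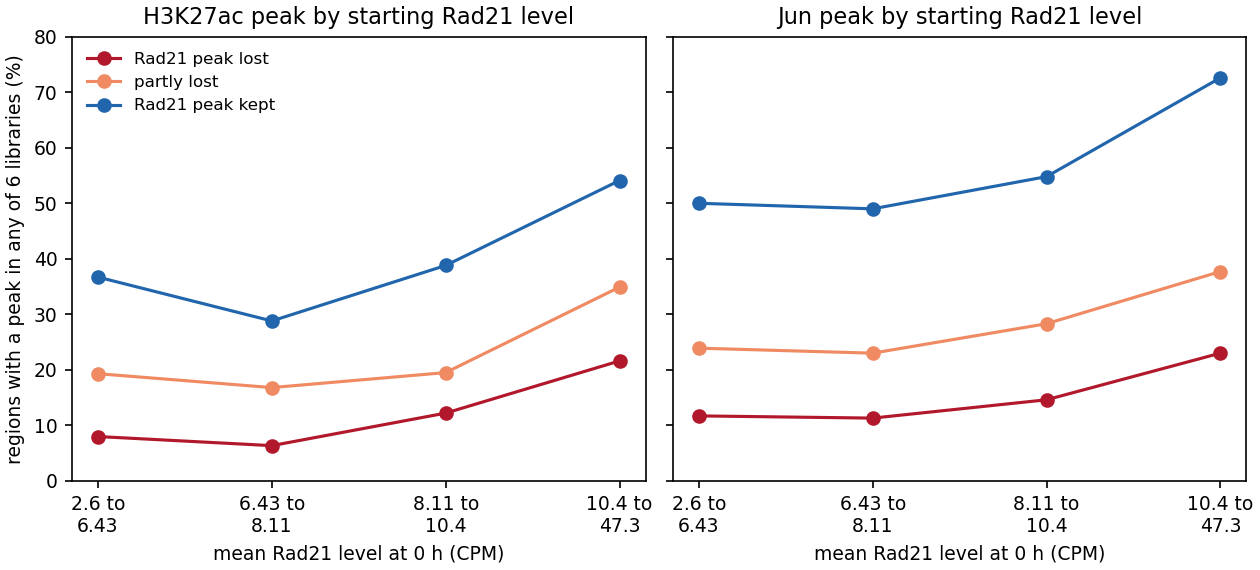
Share of sites with an H3K27ac (left) or Jun (right) peak in any of 6 libraries, in percent, against the range of the mean Rad21 level at 0 h in CPM, for lost, partly lost and kept sites. Lines join the 4 ranges; the lost sites go from 7.98% to 21.6% for H3K27ac and from 11.7% to 23% for Jun, below the other groups in each range.

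Where H3K27ac could be measured, it fell at more lost sites than it rose. A region of the H3K27ac table overlapped 282 lost sites (16.5%), and all 282 passed the filter on low counts. Median levels there were 2.61 and 2.63 CPM at 0 h, 2.48 and 2.51 at 6 h, then 1.7 and 1.55 at 72 h, with highest values between 87.9 and 147. edgeR called 195 of them at 72 against 0 h, or 69.1%, where 81.5% of all 94865 tested regions were called. Of these 144 fell, where 38.1% of all regions fell, and 51 rose, where 43.4% rose. As shares of tested lost sites, 51.1% fell and 18.1% rose. More falls than rises were also called in similar groups. Among partly lost, kept and no-peak sites 45.6%, 40.8% and 53.3% fell, while 21.2%, 20.9% and 27.8% rose. Over all Rad21 regions with a tested H3K27ac region, 47.1% fell and 37.5% rose. The median log2 fold change was -0.66 at lost sites, -0.31 at kept sites, -0.25 over those Rad21 regions and 0.18 over all 94865 regions. At 6 against 0 h, 115 lost sites were called (40.8% of those tested, against 58.6% of all regions). Of these 71 fell (25.2%, against 26.3% of all) and 44 rose (15.6%, against 32.3%). With total counts scaling, which moved the median of all regions from 0.2 to 0.53, the 119 calls at 6 h were 80 higher and 39 lower, so the majority direction at 6 h depended on the scaling. At 72 against 6 h 160 were called (56.7%, against 63.8% of all), of which 128 fell (45.4%, against 30.8%) and 32 rose (11.3%, against 33.1%). Taking both contrasts with the same 0 h libraries together, 69 lost sites were called lower at 6 and at 72 h, and 70 at 72 h alone. Another 25 were called higher at both times, 25 higher at 72 h alone, and 72 at neither time. Joint counts of this kind were not made over all regions, so they only describe the lost sites.

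Sites were named among called ones whose mean level was at or above the median of the mark's table and whose 0 and 72 h libraries did not overlap; some sites of lower level had larger fold changes. By this rule the largest falls of H3K27ac lay in the spans of IMMP2L, DGCR8 and WWC3. At the IMMP2L site (chr7:111329254-111330093), in the gene of a mitochondrial inner membrane peptidase subunit, the mark stood at 116 and 125 CPM at 0 h, 27.6 and 31 at 6 h, then 4.92 and 4.19 at 72 h. Each time point lay apart from the next, and the log2 fold change at 72 h was -4.72 (SE 0.13, edgeR adjusted p 5.31e-20). Rad21 there was 36.5 and 18.2 CPM at 0 h and 11.6 and 11.1 at 72 h, and CTCF went from 35.7 and 31.4 to 24.4 and 26.6. Inside DGCR8 (chr22:20085125-20085365), which encodes the partner of Drosha in microRNA processing, H3K27ac was 32.6 and 36.5 CPM, then 12.8 and 11.8, then 2.82 and 2.99. The log2 fold change was -3.57 (SE 0.15, edgeR adjusted p 2.53e-17), without overlap between times, while Rad21 went from 7.7 and 7.6 to 4.17 and 4.71 CPM. In WWC3 (chrX:10133941-10134597), whose product is a WW domain protein of the Hippo pathway, the mark was 6.87 and 6.17, 2.45 and 3.3, and 0.579 and 0.838 CPM. The fold change was -3.19 (SE 0.29, edgeR adjusted p 2.8e-10), and Rad21 went from 11.8 and 8.44 to 4.76 and 4.34 CPM.

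By the same rule, the largest rises lay near SLC35B1, in IL20 and near SLC4A9. The site 4.87 kb from SLC35B1 (chr17:49695267-49696072), a nucleotide transporter gene, had 0.341 and 0.685 CPM of H3K27ac at 0 h, 4.48 and 3.84 at 6 h, then 13.8 and 13.5 at 72 h. The groups did not overlap, and the log2 fold change was 4.7 (SE 0.27, edgeR adjusted p 1.62e-14). At the site in IL20 (chr1:206864775-206865341), which encodes a cytokine of the IL-10 family, the mark went from 0.454 and 1.21 CPM through 4.2 and 3.25 to 20.4 and 23.1. The change was 4.67 (SE 0.25, edgeR adjusted p 3.92e-15). The site 2.1 kb from SLC4A9 (chr5:140357581-140358093), an anion exchanger gene, went from 0.681 and 0.263 through 2.59 and 2.9 to 7.85 and 7.47 CPM, a change of 4.02 (SE 0.32, edgeR adjusted p 1.61e-11). The H3K27ac levels at 0 h rested on few counts: 6 and 13 near SLC35B1, 8 and 23 in IL20, and 12 and 5 near SLC4A9. Rad21 at these 3 sites differed little between times against its error, and its times overlapped in IL20 and near SLC4A9. It was 9.59 and 9.71 CPM at 0 h and 9.53 and 6.79 at 72 h near SLC35B1, 6.45 and 11.2, then 8.04 and 8.11 in IL20, and 6.45 and 9.71, then 8.34 and 5.28 near SLC4A9. Its log2 fold changes were -0.23 (SE 0.3), -0.1 (SE 0.32) and -0.21 (SE 0.34). CTCF in IL20 was 29.3 and 34.6 CPM at 0 h, 33.3 and 42.3 at 6 h, then 47.5 and 45.9 at 72 h. Both 72 h libraries lay above all earlier ones, but the CTCF difference was not called (log2 fold change 0.55, SE 0.25, edgeR adjusted p 0.165).

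Rad21 differences at lost sites were set beside those of the marks. The median Rad21 log2 fold change was -0.85 at the 144 sites where H3K27ac fell, -0.64 at the 87 tested without a call and -0.55 at the 51 where it rose. At the 1422 lost sites with no H3K27ac region it was -0.8. The median Rad21 difference was thus of similar size where no H3K27ac region was present and where the mark fell. Across the 282 sites, Pearson's r between both log2 fold changes was 0.384 and Spearman's rho 0.387, as a description over regions of the same libraries. For Jun r was 0.231 over 350 sites, a weak relation. At kept sites r was 0.318 for H3K27ac, over 2061 sites, and -0.271 for Jun, over 2714. The rule chose both groups by Rad21 peaks, so no conclusion is drawn from how r differs between them. The scatter of both changes shows that most points lie below 0 for Rad21 on either side of the H3K27ac axis.

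**Figure D4:**
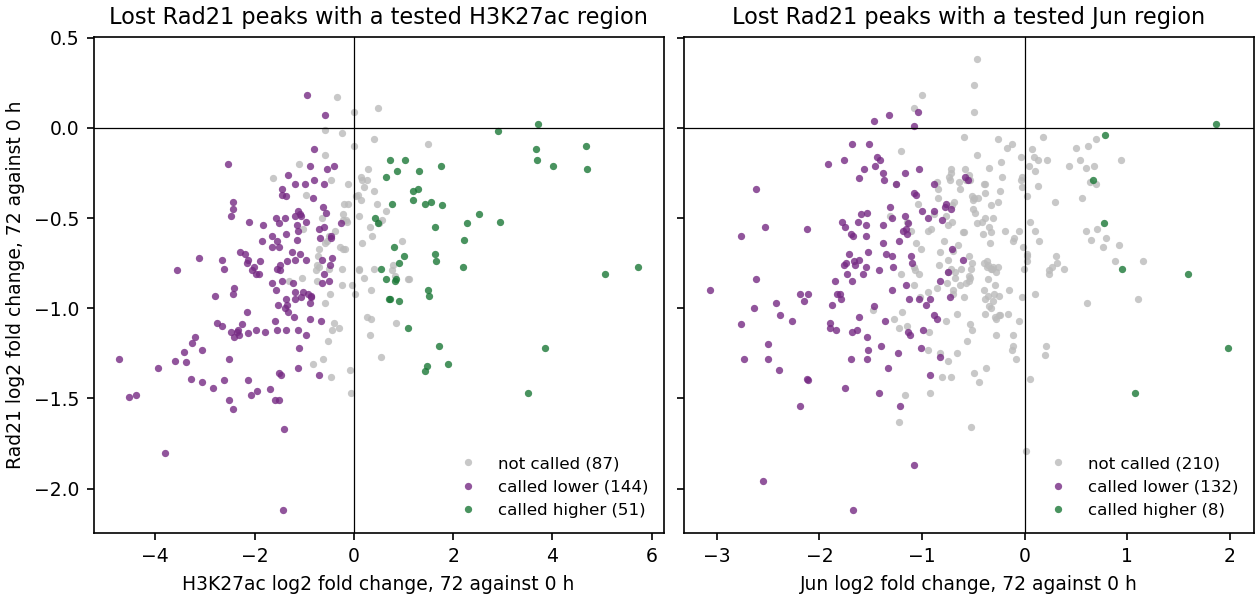
Log2 fold change of Rad21 (vertical) against that of H3K27ac (left, 282 sites) or Jun (right, 350 sites) at lost sites, 72 against 0 h. Each point is 1 site, coloured by the edgeR call for H3K27ac or Jun; 144 sites were called lower and 51 higher for H3K27ac, 132 lower and 8 higher for Jun, and Rad21 lies below 0 at most sites of every colour.

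Jun fell at most of the lost sites where it was called. A region of the Jun table overlapped 363 lost sites, of which 350 passed the filter on low counts. Over the 363, median levels were 3.06 and 3.01 CPM at 0 h, 2.5 and 2.19 at 6 h, then 1.66 and 1.61 at 72 h, and highest values went from 110 and 117 to 25 and 27.1. edgeR called 140 at 72 against 0 h, where 53.7% of all 132947 tested regions were called: 132 fell, where 25.7% of all fell, and 8 rose, where 28% rose. As shares of tested lost sites, 37.7% fell and 2.29% rose. Among partly lost sites 38.3% fell and 3.54% rose, and among kept sites 65.1% and 3.57%. Over all Rad21 regions with a tested Jun region, 48.1% fell and 21.1% rose, so falls were not more frequent at lost sites. The median log2 fold change was -0.73 at lost sites, -1.13 at kept sites, -0.61 over those Rad21 regions and 0.17 over all 132947 regions. The split depended on scaling, since total counts scaling left 84 calls, 59 lower and 25 higher, with medians of -0.17 at lost sites and 0.73 over all regions. Without replicate 1 or 2 of Jun at 72 h, 84 and 75 lost sites were called. At 6 against 0 h 49 lost sites were called (14% of those tested, against 25.3% of all regions). They were 42 lower (12%, against 12.2% of all) and 7 higher (2%, against 13.1%), and total counts scaling gave 29 lower and 12 higher. At 72 against 6 h 47 were called (13.4%, against 26.2% of all), 38 lower (10.9%, against 13.5%) and 9 higher (2.57%, against 12.7%). That last count was 10 and 11 without replicate 1 or 2 at 72 h, 14 lower and 15 higher with total counts scaling, and 15 lower and 1 higher with DESeq2. In the same direction for both marks, 53 lost sites (3.11%) fell in H3K27ac and Jun, and 5 (0.293%) rose in both. Such joint counts were not made over all regions, so these are a description only.

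Under the same rule on level and overlap, the largest falls of Jun lay near AZGP1, in YES1 and in HEXIM1. At the HEXIM1 site (chr17:45151741-45152120), in the gene of an inhibitor of the elongation kinase P-TEFb, Jun was 38.9 and 50.5 CPM at 0 h, 7.04 and 9.31 at 6 h, then 7.13 and 7.34 at 72 h. Nearly all of the fall was present by 6 h, and the change at 72 h was -2.62 (SE 0.2, edgeR adjusted p 7.36e-09). Rad21 there was 7.39 and 5.07, then 5.21 and 4.71 CPM. The site 3.07 kb from AZGP1 (chr7:99979104-99979966), a secreted glycoprotein gene, went from 13.4 and 16.9 through 4.09 and 5.84 to 2.52 and 1.95 CPM of Jun (log2 fold change -2.76, SE 0.26, edgeR adjusted p 4.6e-08). In YES1 (chr18:741797-742499), a Src family kinase gene, Jun went from 7.58 and 9.17 through 1.13 and 1.82 to 1.05 and 1.44 CPM (log2 fold change -2.73, SE 0.33, edgeR adjusted p 1.01e-06). CTCF at the YES1 site was 57.9 and 53 CPM at 0 h, 34 and 41.9 at 6 h, then 23 and 21.8 at 72 h, and Rad21 went from 16 and 13.5 to 5.66 and 6.6.

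Under that rule the largest rises of Jun lay near SPACA3, in ARNT2 and in POC1B, and H3K27ac rose at all 3. Near SPACA3 (chr17:32998248-32998773), a lysozyme-like sperm protein gene, Jun was 4.96 and 4.44 CPM at 0 h, 9.53 and 10.8 at 6 h, then 17.5 and 16.6 at 72 h (log2 fold change 1.86, SE 0.23, edgeR adjusted p 1.05e-06). H3K27ac there went from 0.625 and 1.05 to 10.9 and 11.6 CPM, while Rad21 was 6.92 and 6.33 at 0 h, then 6.7 and 6.79 at 72 h. The rise of H3K27ac had an edgeR adjusted p of 1.04e-12. In ARNT2 (chr15:80455768-80456248), a bHLH-PAS transcription factor gene, Jun went from 2.63 and 4.3 to 11.3 and 9.63 CPM (log2 fold change 1.59, SE 0.28, edgeR adjusted p 6.34e-05). H3K27ac there went from 0.114 and 0 to 2.5 and 1.53 CPM (edgeR adjusted p 1.71e-06), and Rad21 from 8.65 and 8.02 to 4.76 and 4.71. The H3K27ac counts in ARNT2 at 0 h were only 2 and 0. In POC1B (chr12:89470702-89471251), a centriole protein gene, Jun went from 2.63 and 3.44 to 5.99 and 6.83 CPM (log2 fold change 1.08, SE 0.3, edgeR adjusted p 0.00416). That call was lost with DESeq2 and without replicate 2 at 72 h, where the change was 0.89. H3K27ac in POC1B went from 0.738 and 0.738 to 8.22 and 8.74 CPM (edgeR adjusted p 3.7e-11). Rad21 there was 10.4 and 13.9 CPM at 0 h and 4.02 and 4.71 at 72 h.

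The 6 lost sites with the most Rad21 at 0 h are given next. The site with the most Rad21 (chr21:6373818-6374313), in the span of LOC102724701, had 51.1 and 43.5 CPM at 0 h, then 31.3 and 26 at 72 h. The site near CITED2 (chr6:139369444-139370247), a gene for a regulator that binds the coactivators p300 and CBP, had 33.3 and 35.5, then 14.3 and 12.8 CPM. Jun fell there from 9.04 and 13.8 to 2.14 and 2.21 CPM (log2 fold change -2.39, SE 0.32, edgeR adjusted p 3.48e-06). The site 51.1 kb from the start of the manganese transporter gene SLC30A10 (chr1:219876638-219877419, in LOC105372926) had 35.4 and 32.7 CPM of Rad21 and then 9.82 and 11.1. In CLTCL1 (chr22:19217840-19218459), which encodes a clathrin heavy chain, Rad21 was 33.8 and 28.9 and then 11.2 and 12.6 CPM. At that site H3K27ac fell from 11.2 and 11.5 to 2.32 and 1.38 CPM (log2 fold change -2.62, SE 0.23, edgeR adjusted p 1.5e-10) and Jun from 9.04 and 10 to 2.43 and 1.99 (log2 fold change -2.11, SE 0.28, edgeR adjusted p 2.85e-06). In HSPA1B (chr6:31829895-31830318), a heat shock protein gene with a near-identical neighbour, so that its counts are uncertain, Rad21 was 32.2 and 20.7, then 17.7 and 19.6 CPM. The 72 h libraries were below both 0 h libraries at each of these sites, the IMMP2L site included, but by little in HSPA1B.

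The largest decreases of Rad21 level among sites of at least median level whose times did not overlap were in LINC01122, near BPTF, near FREM3, in LRBA, in WDPCP and in LDLRAD3. In the long noncoding gene LINC01122 (chr2:58762136-58762727) Rad21 was 10.8 and 12.9 CPM at 0 h and 2.38 and 2.83 at 72 h, and the log2 fold change was -2.18 (SE 0.35). CTCF there was 13.3 and 19.5 CPM at 0 h and 12.4 and 15.9 at 72 h, so its times overlapped. The site 24.6 kb from BPTF, which encodes a subunit of the NURF remodeller (chr17:67800330-67800921), had 9.43 and 13.5, then 4.17 and 0.754 CPM of Rad21. Its 72 h levels rested on only 28 and 4 counts. H3K27ac fell there from 2.04 and 2.95 to 0.905 and 0.947 CPM (log2 fold change -1.43, SE 0.38, edgeR adjusted p 0.00145). Near FREM3, an extracellular matrix gene (chr4:143773833-143774519), Rad21 was 19 and 12.7, then 5.36 and 2.64 CPM. In LRBA, a gene for a vesicle trafficking protein (chr4:150297832-150298471), it was 18.1 and 14.6, then 3.87 and 4.71. WDPCP, a planar cell polarity gene (chr2:63543622-63544427), had 13.4 and 10.3, then 3.42 and 2.83 CPM. LDLRAD3, a membrane receptor gene (chr11:36131405-36132215), had 17 and 12, then 3.27 and 4.71. The 6 fold changes ran from -2.18 to -1.88. LINC01122, LRBA, WDPCP and LDLRAD3 had no region in the H3K27ac or Jun table over the site.

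Lost sites in the span of, or nearest to, genes of 4 lists were counted, with no comparison to other genes. Of 21 erythroid genes, LMO2, a partner of TAL1, had a lost site (chr11:33829487-33829979, 28.6 kb away), with Rad21 at 6.92 and 7.18, then 4.32 and 5.47 CPM. Kept sites near the same genes numbered 6 and partly lost sites 5. The 19 megakaryocyte and platelet genes had 0 lost, 3 kept, 4 partly lost and 1 gained site, and the 15 immediate early and AP-1 genes had 0, 5, 5 and 0. Among 13 genes of cohesin and CTCF, PDS5B, a regulator that binds the ring, and HDAC8, the SMC3 deacetylase, each had a lost site inside their span. Rad21 in PDS5B (chr13:32639326-32639944) was 7.7 and 8.02, then 2.08 and 5.09 CPM, and in HDAC8 (chrX:72540261-72540739) 7.39 and 9.29, then 4.47 and 6.03. CTCF at the PDS5B site was 20.4 and 24.9 CPM at 0 h and 21.2 and 16.7 at 72 h. At the HDAC8 site it was 14.8 and 19.1, then 19.1 and 17, so CTCF overlapped between times at both.

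Few lost sites lay close to a gene start. Protein-coding gene spans held 829 of them (48.7%), against 45.3% of kept sites. Outside chromosome 8, which was not used for gene starts or promoter windows, 83 of 1623 (5.11%) lay within 1 kb of a gene start, against 15.3% of kept sites, although the median distance was alike, at 22.5 and 22.7 kb. The nearest other lost site was at a median of 359 kb and the nearest kept site at 244 kb, while a kept site had its nearest kept site at 125 kb. These distances were not adjusted for the number of sites in each group, 1704 and 3477. Of the sites next in order on either side of a lost site, among sites with both 0 h peaks, 30% were lost, 29.4% partly lost and 40.6% kept. Next to kept sites these shares were 20%, 25.8% and 54.2%. Of all sites with both 0 h peaks 23.7% were lost, from 15.8% on chromosome 22 and 16.2% on chromosome 1 to 38% on chromosome X and 38.5% on chromosome 14. A region with H3K27ac called lower at 72 h lay within 10 kb of 31.6% of lost sites and one called higher within 10 kb of 26.2%, against 40.1% and 35.8% of kept sites and 36.1% and 35% of all Rad21 regions. For Jun these shares were 32.4% and 22.4% at lost sites, 66.8% and 28.1% at kept sites and 43.4% and 29.7% over all regions. Within 50 kb the order turned for H3K27ac called lower, at 66.4% of lost sites and 60.9% of all regions, with kept sites at 69.1%. Jun called lower within 50 kb stood at 71.4%, 70.8% and 88.6%.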

How the data were processed

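Coordinates are 1-based on GRCh38: no file header names a build, the submitters' processing notes list hg19 and hg38, and regions on chromosome 20 reach position 64331078. The lost sites, gene lists and motifs were chosen with earlier results of these data known. Per the file headers, each deposited region table gives unscaled read counts for every library, next to the authors' log2 fold change, adjusted p-value and label. The deposited peak lists, 1 per library, hold the authors' fold enrichment and −log10 q-value. The submitters' processing notes name Trim Galore 0.4.3, BWA 0.7.17, SAMtools 1.9, deepTools 3.0.1, MACS2 and bedtools 2.26; how regions were built and which control was used for peaks are not given in the sources used here.

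The whole table of an antibody was fitted with edgeR 4.0.16 in R 4.3.3 (filterByExpr, TMM, glmQLFTest, all time points in 1 fit and no replicate block). A call means that the p-value, adjusted over the table by Benjamini-Hochberg, was under 0.05. Standard errors were taken as the log2 fold change over the square root of F. Simulated counts with known changes served to check the fit. A site was read through the overlapping region with the highest mean count. Each site takes the counts of that whole region. Alternatives were total counts scaling, DESeq2 1.42.0, other filters on low counts, only the 2 time points compared, the replicate block, the longest overlap, each library left out, and stricter peaks or overlaps. Gene names came from a RefSeq table (GRCh38.p14) that gives spans without exons.

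Sites were named by a rule: the 6 with the highest Rad21 at 0 h, the 6 with the most negative Rad21 log2 fold change among those of at least median level with both 72 h libraries below both 0 h libraries, the 3 largest rises and 3 largest falls of H3K27ac and of Jun among called regions of at least the table's median level with no overlap between 0 and 72 h, and sites at listed genes. The promoters and counts of 5 or fewer came outside this rule. Replicate numbers were not treated as pairs, since same-numbered libraries did not deviate together at every pair of times. The check of the line against genes of other lineages is not reported here.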

Additional observations from a re-analysis of the deposited data

How the results depend on the processing

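Of 75 alternatives without a left-out library, 45 kept the value within 1.5 times and the majority direction, 27 moved it and 3 turned the direction; the cause was not tested. Leaving out 1 library kept 44 of 68 values within 1.5 times. Total counts scaling turned the majority for H3K27ac at 6 against 0 h (119 calls, 80 higher), Jun at 72 against 6 h (29, 15 higher) and CTCF at 72 against 6 h (7, 6 higher), and gave 84 for Jun and 27 for CTCF at 72 against 0 h and 874 for Rad21. DESeq2 gave 30 and 16 for Jun at 6 against 0 h and 72 against 6 h, 1, 40 and 6 for CTCF at 6 against 0 h, 72 against 0 h and 72 against 6 h, and 114 for Rad21. A mean count of at least 50, which tests fewer sites, gave 116 and 95 for H3K27ac at 72 against 0 h and 72 against 6 h, 26, 49 and 16 for Jun at 6 against 0 h, 72 against 0 h and 72 against 6 h, 23 and 4 for CTCF at 72 against 0 h and 72 against 6 h, and 208 for Rad21. Fitting only the 2 time points gave 508 and 4 for CTCF at 72 against 0 h and 72 against 6 h. Peaks covering at least 50% of the region gave 940 sites. These were not a subset of the lost sites: most lost sites were missing from them, and other sites came in. Stricter peaks by q-value kept most lost sites, but also dropped some and added others. A number of sites within 1.5 times thus does not mean that the sites were the same. Within 50 kb the neighbourhood shares were 66.4% and 60.6% for H3K27ac lower and higher and 71.4% and 59.1% for Jun, against 60.9%, 64.1%, 70.8% and 60.8% of all Rad21 regions.

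Left-out libraries gave 89 to 109, 169 to 201 and 120 to 160 calls for H3K27ac (6 against 0 h, 72 against 0 h, 72 against 6 h), 36 to 56, 75 to 173 and 10 to 46 for Jun, 0 to 23, 0 to 490 and 0 to 153 for CTCF, 107 to 499 for Rad21, and 1708 to 3161 sites. The replicate block gave 7, 363 and 70 calls for CTCF at 6 against 0 h, 72 against 0 h and 72 against 6 h and 649 for Rad21, and moved no H3K27ac or Jun count by over 1.5 times. Same-numbered libraries correlated between -0.00285 and 0.132 in their deviations, so the numbers are not taken as a pairing. Depth limits single sites: the median lost site had 26 to 53 Rad21 counts per library.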
